A study of Mus musculus with 2 samples.

Results

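Dorsal horn identity transcription factors are the 37 genes described here, DNA-binding proteins and transcriptional cofactors known to specify or mark neurons of the dorsal spinal cord. They were chosen by name, and all 37 were present among the 19575 genes of the count table. Nuclear RNA had been sequenced from single nuclei of the lumbar dorsal cord of adult mice that carried Pdyn-IRES-Cre(+/-) and R26-LSL-Sun1.eGFP(+/-). In these mice Cre recombinase, made from the gene of prodynorphin, which is cut into dynorphin opioid peptides, switches on a green nuclear-envelope protein for life, and nuclei were sorted on that green signal. The injured library came from mice with an incision of the left plantar hindpaw at postnatal day 3, and the naive library from littermates that were exposed to isoflurane at postnatal day 3. Each library was 1 pool of 8 mice of either sex, and all mice of both libraries carried the Cre and the reporter.

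The dorsal horn receives touch, itch and pain signals from the skin and is built from inhibitory interneurons, which release GABA or glycine, and excitatory interneurons, which release glutamate. During development the homeodomain protein Lbx1 marks the precursors of many of them. Pax2, Lhx1 and Lhx5 then support the inhibitory choice, while Tlx3 and Lmx1b support the excitatory choice. Other factors, such as Maf, Rorb and Rora, subdivide each branch into layers and functional types. The lineage sorted here is known to be largely inhibitory with an excitatory minority, so these factors can be read on both branches.

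Each nucleus was given a transmitter class from 5 genes that are not members. The inhibitory genes were Gad1 and Gad2, which make GABA, Slc32a1, which loads GABA and glycine into vesicles, and Slc6a5, which takes up glycine. The excitatory gene was Slc17a6, a vesicular glutamate transporter. Nuclei with at least 3 UMIs (unique molecular identifiers, counted molecules) over these genes were inhibitory where at least 0.8 of the UMIs came from the inhibitory genes, excitatory where at most 0.2 did, and mixed in between. The injured library held 3547 nuclei, of which 99 were mixed, 1543 inhibitory, 321 excitatory and 1584 without a class. The naive library held 4063 nuclei, of which 126 were mixed, 1646 inhibitory, 290 excitatory and 2001 without a class. Scrublet, a doublet caller, marked 7 injured nuclei (0.197%) and 106 naive nuclei (2.61%), a share in the injured library too low to count as a working call, so no nuclei were removed on it. The libraries shared 3 cell barcodes. The median depth was 8464 UMIs per injured and 6955 per naive nucleus, and the totals were 32934588 and 30602222 UMIs. Levels below are CPM, UMIs of a gene scaled to the total UMIs of the class, and all 95% intervals cover counting error only, not differences between mice.

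The promoters of the genes at the head of the 2 branches are shown because the results turn on them. RefSeq entries (build GRCm38.p6, 250 bases before to 50 after the start of transcription, written 5′ to 3′ on the strand of the gene) matched 27 of the 37 members. Pax2 has 3 starts in the table, of which 1 holds the motif and is shown. This Pax2 start at chr19:44755502-44755801 (plus strand), the Lmx1b start at chr2:33641049-33641348 (minus strand) and the Tlx3 start at chr11:33203539-33203838 (minus strand) read as follows, with capitals marking CAGCTG, which the windows of Lmx1b and Tlx3 and the other Pax2 starts lack, an E-box that basic helix-loop-helix proteins can bind.
Pax2: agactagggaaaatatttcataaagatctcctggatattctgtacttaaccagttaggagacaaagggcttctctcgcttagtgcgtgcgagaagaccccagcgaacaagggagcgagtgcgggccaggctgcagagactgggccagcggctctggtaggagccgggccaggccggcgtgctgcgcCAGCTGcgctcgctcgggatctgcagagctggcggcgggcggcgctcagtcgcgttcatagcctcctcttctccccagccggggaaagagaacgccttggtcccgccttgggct
Lmx1b: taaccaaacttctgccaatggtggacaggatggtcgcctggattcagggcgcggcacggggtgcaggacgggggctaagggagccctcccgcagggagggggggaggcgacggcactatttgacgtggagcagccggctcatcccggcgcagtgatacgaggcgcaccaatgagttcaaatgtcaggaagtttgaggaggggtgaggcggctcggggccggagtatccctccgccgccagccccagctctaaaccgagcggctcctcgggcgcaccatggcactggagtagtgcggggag
Tlx3: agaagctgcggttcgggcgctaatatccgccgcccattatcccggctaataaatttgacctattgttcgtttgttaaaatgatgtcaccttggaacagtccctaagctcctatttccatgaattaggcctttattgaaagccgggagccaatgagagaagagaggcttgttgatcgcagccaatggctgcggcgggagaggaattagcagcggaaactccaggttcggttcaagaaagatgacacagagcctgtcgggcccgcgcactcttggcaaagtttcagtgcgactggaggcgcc
CAGCTG reads the same on both strands and stood in 5 of the 50 promoters of matched members (10%), against 16.3% of all 32851 promoters of this length. The members were Esrrb, Pax2, Prdm8, Satb1 and Sox6. The homeodomain core TAATTA, also the same on both strands, stood in 1 of the 50 (2%), that of Foxp1, against 5.29% of all promoters. These are descriptions of letters, not binding sites.

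Inhibitory and excitatory nuclei carried different sets of the factors, and the differences were large in both libraries. Pax2 and Rorb stood far higher in inhibitory nuclei, and Lmx1b, Tlx3 and Pbx3 far higher in excitatory nuclei. UMIs were summed per library and class, and the 6 sums were tested with edgeR's quasi-likelihood test, with library as a block and Benjamini-Hochberg adjustment over all 13404 genes that passed the filter on low counts. Of the 35 members tested, 14 were higher in inhibitory nuclei and 14 lower, against 11.7% and 13.6% of all genes tested. The 2 members not tested, Esrrb and Npas1, had 72 and 46 UMIs over the 3 classes. The 6 sums leave 2 residual degrees of freedom per gene, and the quasi-likelihood fit adds to them a spread shared over all genes, so each p rests largely on that shared spread and speaks only of these pools.

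**Figure D1:**
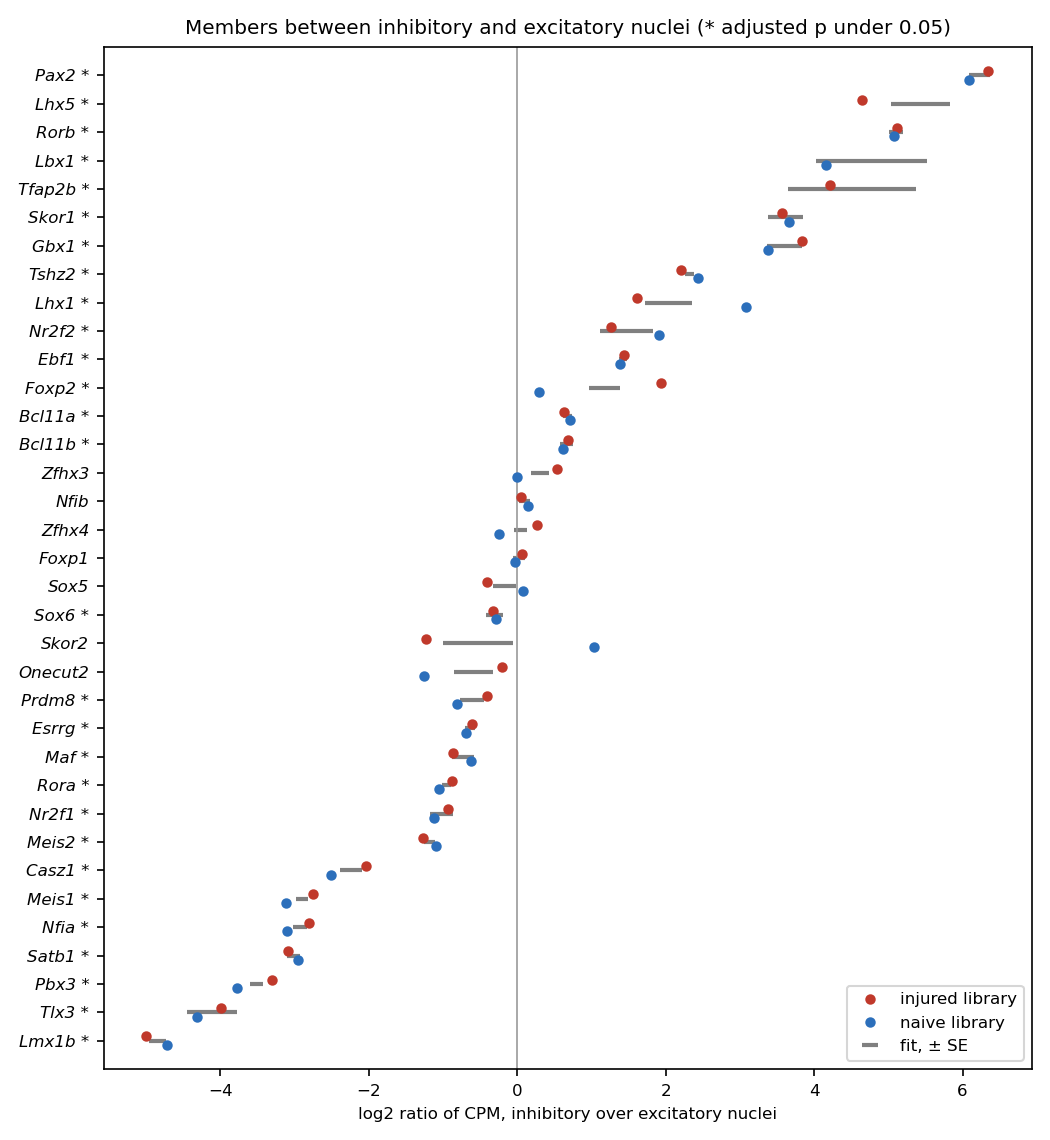
Log2 ratio of CPM, inhibitory over excitatory nuclei, for the 35 tested members, with the injured library in red, the naive library in blue and the fitted value ± SE as a grey bar. Pax2 stands at the top, Lmx1b at the bottom, and a library whose excitatory nuclei held no UMI of the gene (Lhx5 and Tfap2b in naive, Lbx1 in injured) has no point.

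Among the factors of the inhibitory branch, Pax2, a paired-box factor needed for the GABA program of dorsal horn neurons, had 207 CPM in injured and 206 CPM in naive inhibitory nuclei, against 2.54 and 3.04 CPM in excitatory nuclei. The classes were far apart in both libraries (log2 ratio 6.23 ± 0.14 SE, edgeR adjusted p = 3.2e-20). Lhx5, a LIM-homeodomain factor that supports the inhibitory fate, had 19.1 and 19.96 CPM in injured and naive inhibitory nuclei, against 0.763 CPM in injured excitatory nuclei and no UMI in naive ones, where a count of 0 allows up to 1.01 CPM (3 counts). Lhx1, its close relative, had 10.2 and 8.55 CPM in inhibitory nuclei of the injured and naive library, against 3.31 and 1.01 CPM in excitatory nuclei, a log2 ratio of 2.04 ± 0.32 (adjusted p = 1.9e-05). Lbx1, the factor of the common precursors, had 3.30 and 6.01 CPM in inhibitory nuclei, against 0 and 0.338 CPM in excitatory nuclei. Lbx1 is thus recorded at low counts, with 134 UMIs over the 3 classes in all. Gbx1, a homeodomain factor of inhibitory dorsal horn neurons, had 25.4 and 28.1 CPM in injured and naive inhibitory nuclei, against 1.78 and 2.70 CPM in excitatory nuclei. Skor1, a corepressor that acts with Lbx1, had 21.2 and 29.9 CPM in inhibitory nuclei, against 1.78 and 2.36 CPM in excitatory nuclei. Their log2 ratios were 3.60 ± 0.24 for Gbx1 and 3.61 ± 0.24 for Skor1, and the libraries of the 2 classes did not overlap for either gene.

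Rorb, an orphan nuclear receptor of inhibitory interneurons that gate input from the limb, had 531 CPM in injured and 466 CPM in naive inhibitory nuclei, against 15.3 and 13.8 CPM in excitatory nuclei (log2 ratio 5.11 ± 0.10, adjusted p = 8.6e-22). Its relative Rora, which marks excitatory interneurons of the touch layers, went the other way. Rora had 693 and 559 CPM in injured and naive inhibitory nuclei, against 1269 and 1157 CPM in excitatory nuclei (log2 ratio −0.95 ± 0.06, adjusted p = 2.0e-12). The zinc-finger factor Tshz2 had 1095 and 1051 CPM in inhibitory nuclei of the injured and naive library, against 237 and 195 CPM in excitatory nuclei. Ebf1, a helix-loop-helix factor, had 2391 and 2436 CPM in inhibitory nuclei, against 882 and 933 CPM in excitatory nuclei. Both were recorded in either class and were higher in the inhibitory one (log2 ratios 2.32 ± 0.06 for Tshz2 and 1.42 ± 0.05 for Ebf1). Bcl11a and Bcl11b, paired zinc-finger repressors that shape dorsal horn and corticospinal neurons, were higher by smaller steps, with log2 ratios of 0.68 ± 0.07 and 0.66 ± 0.09. Bcl11a had 228 and 223 CPM in injured and naive inhibitory nuclei, against 148 and 136 CPM in excitatory nuclei, and Bcl11b had 83.1 and 86.1 CPM, against 51.7 and 56.4 CPM. Foxp2, a forkhead repressor, had 39.8 and 24.4 CPM in inhibitory nuclei, against 10.4 and 19.9 CPM in excitatory nuclei (log2 ratio 1.17 ± 0.21), and without the 10% of nuclei with most UMIs its ratio was −0.03. Nr2f2, an orphan receptor of the COUP-TF type, had 7.34 and 5.09 CPM, against 3.05 and 1.35 CPM (1.47 ± 0.36). Tfap2b, an AP-2 factor, had 4.71 and 2.47 CPM, against 0.254 and 0 CPM, and rested on 111 UMIs over the 3 classes.

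On the excitatory side, Lmx1b, the LIM-homeodomain factor that keeps glutamatergic dorsal horn neurons in their fate, had 3.63 CPM in injured and 4.70 CPM in naive inhibitory nuclei, against 117 and 124 CPM in excitatory nuclei (log2 ratio −4.85 ± 0.12, adjusted p = 6.5e-20). Tlx3, which selects the glutamatergic over the GABAergic fate, had 0.606 and 0.693 CPM in inhibitory nuclei, against 9.67 and 13.8 CPM in excitatory nuclei (log2 ratio −4.11 ± 0.34). Both genes were separated between the classes in either library. Pbx3, a TALE homeodomain cofactor of Hox and Meis proteins, had 64.3 and 44.1 CPM in inhibitory nuclei, against 636 and 606 CPM in excitatory nuclei (log2 ratio −3.51 ± 0.09). Meis1, another TALE factor, had 28.8 and 21.7 CPM in inhibitory nuclei, against 194 and 188 CPM in excitatory nuclei. Meis2 had 59.8 and 57.4 CPM, against 144 and 123 CPM. The inhibitory sums include 26 injured and 37 naive nuclei of the CSF-contacting neuron-like cluster described below. Over all nuclei of that cluster Meis2 had 3056 and 2764 CPM. In nuclei thinned to 4000 UMIs, Meis2 was seen in 4.56% and 4.63% of inhibitory nuclei, against 19.7% and 22.8% of excitatory nuclei. The 3 TALE genes were thus all lower in inhibitory nuclei, with log2 ratios of −2.90 ± 0.08 for Meis1 and −1.18 ± 0.08 for Meis2. Satb1, a chromatin organizer, had 20.1 and 19.96 CPM in injured and naive inhibitory nuclei, against 170 and 155 CPM in excitatory nuclei. Nfia, a nuclear factor I protein of late-born neurons and glia, had 59.4 and 43.8 CPM in inhibitory nuclei, against 415 and 376 CPM in excitatory nuclei. Their log2 ratios were −3.02 ± 0.08 and −2.93 ± 0.09. Casz1, a zinc-finger factor, had 8.95 and 7.63 CPM, against 36.6 and 43.5 CPM (−2.24 ± 0.14). Smaller differences, with log2 ratios of −1.02 to −0.30, were those of Nr2f1, Maf, Esrrg, Prdm8 and Sox6. Nr2f1, a COUP-TF receptor, had 9.56 and 11.3 CPM in injured and naive inhibitory nuclei, against 18.3 and 24.6 CPM in excitatory nuclei. Esrrg, an estrogen-related receptor, had 168 and 141 CPM, against 257 and 228 CPM. Prdm8 had 11.2 and 13.9 CPM, against 14.8 and 24.3 CPM, and Sox6 had 30.8 and 30.1 CPM, against 38.7 and 36.8 CPM. Maf, which marks neurons of the touch layers, had 11.7 and 16.5 CPM in inhibitory nuclei, against 21.4 and 25.3 CPM in excitatory nuclei.

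The 7 tested members without a call were Foxp1, Nfib, Zfhx3, Zfhx4, Sox5, Skor2 and Onecut2. Foxp1, a forkhead factor, had 111 and 106 CPM in injured and naive inhibitory nuclei, against 107 and 109 CPM in excitatory nuclei, and the classes overlapped. Nfib had 450 and 468 CPM, against 434 and 425 CPM (log2 ratio 0.10 ± 0.08, adjusted p = 0.38), so the 2 nuclear factor I genes differed in this comparison, with Nfia called and Nfib not. Zfhx3, a large zinc-finger homeodomain protein, had 67.6 and 52.4 CPM in inhibitory nuclei, against 46.8 and 52.7 CPM in excitatory nuclei (0.30 ± 0.12), and its relative Zfhx4 had 123 and 95.6 CPM, against 102 and 114 CPM (0.04 ± 0.09). Onecut2 had 7.07 and 3.39 CPM, against 8.14 and 8.10 CPM. The libraries of the 2 classes overlapped for Zfhx3 and Zfhx4. Skor2 had 84 UMIs over the 3 classes and a log2 ratio of −0.53 ± 0.48, so its SE is nearly as large as the ratio itself. Of the 2 members without a test, Esrrb had 2.49 and 1.46 CPM in inhibitory and 2.04 and 1.69 CPM in excitatory nuclei, and Npas1 had 1.28 and 1.002 CPM, against 0.509 and 1.69 CPM.

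Mixed nuclei, those with UMIs of both transmitter kinds, had intermediate levels of both branches of the code when summed as a class. Such sums do not show that single nuclei held both branches, which is counted further below. Pax2 had 69.1 CPM in injured and 69.6 CPM in naive mixed nuclei, Lmx1b had 65.6 and 66.5 CPM, and each lay between that gene's levels in inhibitory and in excitatory nuclei. Mixed over inhibitory nuclei, 11 members were higher and 11 lower, against 6.21% and 4.79% of all genes tested. Mixed over excitatory nuclei, 9 members were higher and 6 lower, against 2.55% and 2.06%. Of the 28 members called between inhibitory and excitatory nuclei, 21 (75%) had a mixed level between the other 2 in both libraries, against 1913 of 3390 called genes (56.4%). The 7 others were Bcl11b, Esrrg, Foxp2, Nr2f2, Prdm8, Sox6 and Tfap2b. Mixed nuclei are set by UMIs of both kinds, so a level between the classes is partly built in. Members and all called genes were not matched for the size of their class ratio, so these shares show no trait of the members.

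The factors that were higher in mixed than in inhibitory nuclei were those of the excitatory side with Sox5. Lmx1b was 3.97 ± 0.17 higher on the log2 scale (adjusted p = 3.5e-14), Tlx3 3.50 ± 0.51, Pbx3 2.76 ± 0.10, Meis1 2.44 ± 0.12 and Satb1 2.26 ± 0.12. Against excitatory nuclei, Pax2 was 4.63 ± 0.23 higher (adjusted p = 1.0e-12), Lhx5 3.68 ± 0.74, Rorb 3.63 ± 0.13, Gbx1 2.52 ± 0.40 and Skor1 2.29 ± 0.42. Sox5, an SRY-related factor known for roles in neuron and glia differentiation, was higher in mixed nuclei than in both other classes, by 1.06 ± 0.18 over inhibitory and 0.88 ± 0.20 over excitatory nuclei. Its mixed level was 118 CPM in the injured and 50.7 CPM in the naive library, against 39.5 and 41.4 CPM in inhibitory and 52.4 and 39.2 CPM in excitatory nuclei. The injured mixed nuclei thus stood apart from the other 5 sums. The choice of nuclei counted as mixed bears on these calls. With the class set per cluster, 22 members were higher in mixed than in inhibitory nuclei, and 16 were higher and 13 lower than in excitatory nuclei. The mixed over excitatory ratio of Ebf1 turned to −0.85. In that setting the mixed class was all nuclei of clusters 2 and 23, 428 injured and 341 naive, of which 354 and 322 were in cluster 2. Only 27 of the 99 injured and 16 of the 126 naive mixed nuclei lay in those clusters, so largely other nuclei were compared. No share over all genes was taken in that setting. Near the limits of the rule lay 53 injured and 52 naive nuclei with an inhibitory share of 0.7 to 0.9, and 35 and 42 with 0.1 to 0.3.

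Depth and signs of RNA from more than 1 cell were set beside the mixed class. The median depth was 11953 UMIs in injured and 8620 in naive mixed nuclei, against 8616 and 7196 in inhibitory and 11359 and 9430 in excitatory nuclei. By median, mixed nuclei were thus the deepest class in the injured library and lay between the other classes in the naive library. Without the 10% of nuclei with most UMIs, 56 of 99 injured and 84 of 126 naive mixed nuclei were left. That step left 1380 of 1543 and 1479 of 1646 inhibitory nuclei, and 239 of 321 and 200 of 290 excitatory nuclei. Mice of either sex were pooled, so Xist together with Y-linked UMIs can mark RNA of more than 1 animal, and such nuclei made up 17.2% and 13.5% of injured and naive mixed nuclei, against 6.55% and 5.35% of inhibitory and 5.92% and 3.79% of excitatory nuclei. Without the nuclei that Scrublet marked, 103 of 126 naive mixed nuclei were left, against 1591 of 1646 naive inhibitory and 288 of 290 naive excitatory nuclei, while all 99 injured mixed nuclei were left. Cluster 12, with neuron markers beside Schwann cell markers, held 14 injured and 8 naive mixed nuclei, and cluster 23, with oligodendrocyte markers, held 2 and 1. Leaving out the nuclei with both sex markers changed no count of called members by more than 1.5 times. The part of joint capture in the mixed levels was not tested.

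Clustering of all nuclei, with the members kept out of the genes that set the clusters, divided the mixed nuclei into groups with different factors. In the injured library 27 of them lay in clusters with both transmitters, 33 in inhibitory and 39 in excitatory clusters, and in the naive library 16, 41 and 69. The inhibitory clusters included cluster 12, with neuron markers beside Schwann cell markers, which held 14 of these injured and 8 of these naive nuclei. Pax2 had 137 CPM (103 to 179) in injured and 128 CPM (92.7 to 171) in naive mixed nuclei of inhibitory clusters, and 27.3 CPM (15.3 to 45.1) and 33.6 CPM (21.5 to 50.004) in those of excitatory clusters. The Pax2 level of the second set was thus below the first, yet above the 2.54 and 3.04 CPM of excitatory nuclei. Lmx1b had 20.3 and 17.4 CPM in injured and naive mixed nuclei of inhibitory clusters, and 126 and 111 CPM in those of excitatory clusters. Rorb and Pbx3 divided the same way, with Rorb at 456 and 473 CPM against 111 and 99.4 CPM, and Pbx3 at 86.2 and 81.2 CPM against 565 and 563 CPM. Mixed nuclei in inhibitory clusters thus carried mainly the inhibitory set and those in excitatory clusters mainly the excitatory set.

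**Figure D2:**
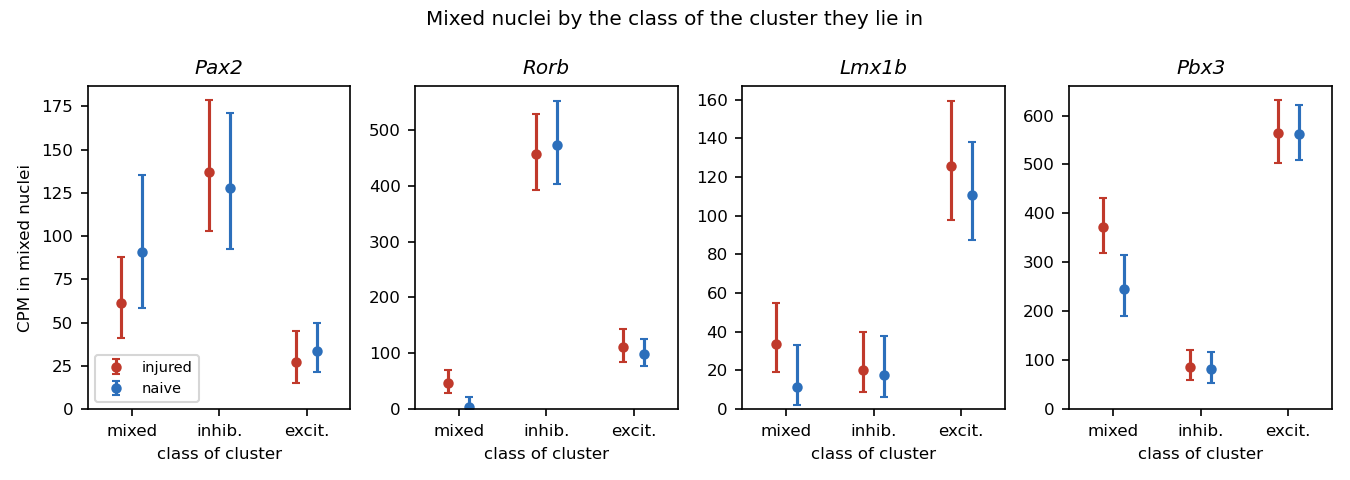
Levels of Pax2, Rorb, Lmx1b and Pbx3 in mixed nuclei, in CPM with 95% Poisson intervals, by the transmitter class of the cluster they lie in (injured in red, naive in blue). Pax2 and Rorb are high in inhibitory clusters, Lmx1b and Pbx3 in excitatory clusters.

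Combinations within single nuclei were counted after each nucleus was thinned to 4000 UMIs, which left out 2 naive mixed, 7 injured and 26 naive inhibitory, and 2 injured and 1 naive excitatory nuclei. Pax2 without Lmx1b and Tlx3 was seen in 21.2% of injured and 18.5% of naive mixed nuclei, in 47.2% and 47.2% of inhibitory nuclei, and in 0.313% and 0.346% of excitatory nuclei. Lmx1b or Tlx3 without Pax2 was seen in 19.2% and 20.2% of mixed, 0.586% and 0.741% of inhibitory, and 37.6% and 42.9% of excitatory nuclei. The 2 patterns were thus nearly mirror images in inhibitory and excitatory nuclei, and of similar size in mixed nuclei. Pax2 together with Lmx1b or Tlx3 was rare in every class, in 2 of 99 injured mixed nuclei (2.02%, exact interval 0.246 to 7.11), 2 of 124 naive mixed nuclei (1.61%, 0.196 to 5.70), 0.716% and 0.864% of inhibitory nuclei, and 0 of 319 injured (which allows up to 0.940%) and 1.38% of naive excitatory nuclei. Without thinning, the joint pattern was seen in 12.1% of injured and 10.3% of naive mixed nuclei, against 2.40% and 2.55% of inhibitory nuclei, and 4 of 321 and 5 of 290 excitatory nuclei. None of the 3 genes was seen at 4000 UMIs in 57.6% and 59.7% of mixed, 51.5% and 51.2% of inhibitory, and 62.1% and 55.4% of excitatory nuclei.

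**Figure D3:**
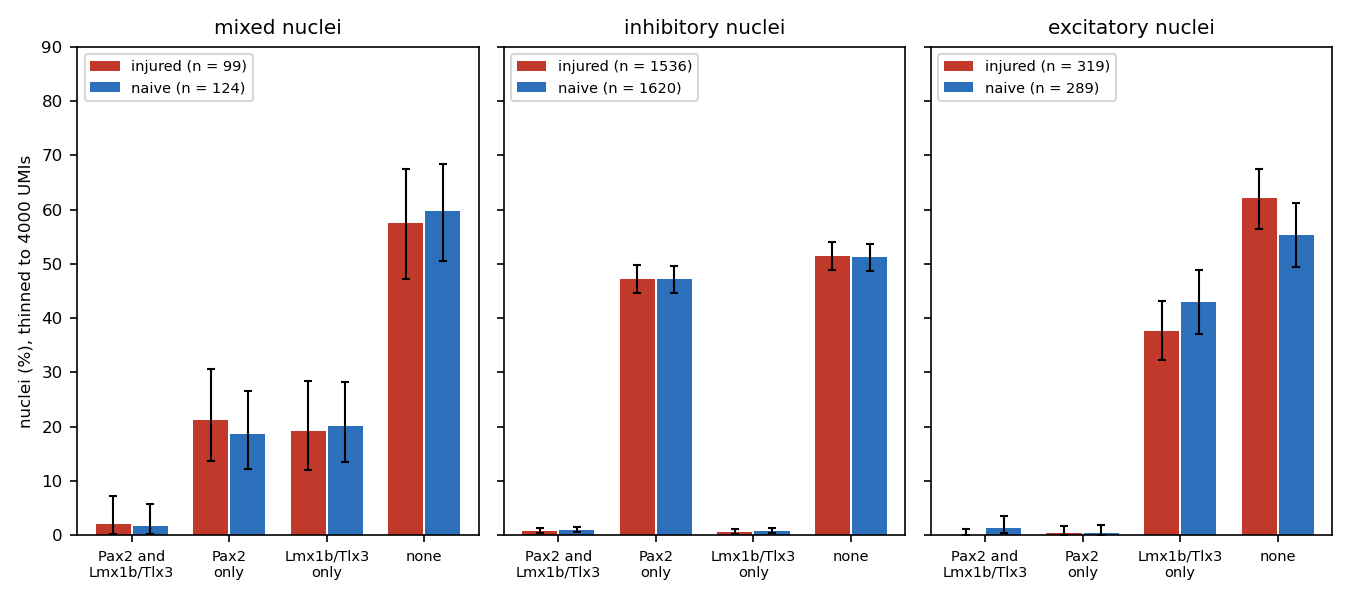
Share of nuclei (%, thinned to 4000 UMIs, exact 95% binomial intervals) with Pax2 and Lmx1b or Tlx3, Pax2 only, Lmx1b or Tlx3 only, or none of them, for mixed, inhibitory and excitatory nuclei of the injured (red) and naive (blue) library. Pax2 alone reaches 47.2% in inhibitory nuclei, and Lmx1b or Tlx3 alone 42.9% in naive excitatory nuclei.

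Free RNA can give UMIs in nuclei that do not transcribe a gene, so the oligodendrocyte-like cluster, 45 injured and 42 naive nuclei with 7 of 7 oligodendrocyte markers at least 4-fold above the other nuclei, served as a measure of it. Pax2, Lmx1b, Tlx3, Lhx1, Lhx5 and Skor1 had no UMI there in either library. For a count of 0 the interval there reached up to 26.6 CPM in the injured and 35.4 CPM in the naive library. Tlx3, Lhx1, Lhx5 and Skor1 stayed below these limits in every class of the same library. Pax2 in excitatory nuclei (2.54 and 3.04 CPM) and Lmx1b in inhibitory nuclei (3.63 and 4.70 CPM) did so too. The cluster held too few UMIs to measure free RNA at such levels. Esrrg, Bcl11a and Bcl11b also had no UMI there, and they lay above these limits in every class of the same library. Ebf1 had 14.4 CPM in injured and 9.61 CPM in naive oligodendrocyte-like nuclei, against 882 and 933 CPM in excitatory nuclei, its lowest class. After thinning to 1500 UMIs, Rorb was seen in 2.27% of 44 injured and 0 of 37 naive oligodendrocyte-like nuclei. It was seen in 40.1% and 37.2% of inhibitory and 2.49% and 1.38% of excitatory nuclei. With so few oligodendrocyte-like nuclei, Rorb in excitatory nuclei could not be told apart from that background. This thinning left out 1 injured and 5 naive oligodendrocyte-like nuclei. Nfia, a gene that glia also transcribe, was seen in 68.2% and 78.4% of oligodendrocyte-like nuclei, Meis1 in 29.5% and 32.4%, Rora in 15.9% and 21.6% and Pbx3 in 20.5% and 16.2%. For these genes the oligodendrocyte-like level was therefore no measure of free RNA.

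The 11 pairs of related genes among the members were also counted per nucleus at 4000 UMIs. Rora with Rorb was seen in 21.2% of injured and 16.1% of naive mixed nuclei, 33.7% and 31.5% of inhibitory nuclei, and 3.45% and 5.88% of excitatory nuclei. Rora without Rorb was the pattern of 89.7% and 87.9% of excitatory nuclei, against 35.2% and 35.9% of inhibitory nuclei. The pair was thus seen together most often in inhibitory nuclei, while excitatory nuclei carried Rora. Each gene was frequent in inhibitory nuclei, with Rora in 68.9% and 67.3% and Rorb in 54.0% and 53.0%. The joint share therefore does not show that the 2 genes go together. Nfib without Nfia was seen in 63.9% of injured and 67.8% of naive inhibitory nuclei, against 12.9% and 15.6% of excitatory nuclei, and both in 8.07% and 7.65%, against 57.1% and 57.1%. Lhx1 and Lhx5 were seen together in 2 of 1536 injured and in 0 of 1620 naive inhibitory nuclei, while Lhx5 alone was seen in 7.62% and 7.65% and Lhx1 alone in 2.99% and 2.35% of them. With each gene this rare, the low joint count does not show that they exclude each other. Meis1 without Meis2 was seen in 42.0% of injured and 34.3% of naive excitatory nuclei, against 6.45% and 6.11% of inhibitory nuclei.

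Levels were then read over 24 of 28 clusters that held at least 30 nuclei in each library, which show how the factors combine within a class. Among the members, 29 of 37 had their highest level in the same cluster in both libraries. The rank correlation of a member's cluster levels between the libraries had a median of 0.898 and a lowest value of 0.216, that of Npas1, which had 83 UMIs in all nuclei. Clusters were made from both libraries together, and these levels carry no test.

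**Figure D4:**
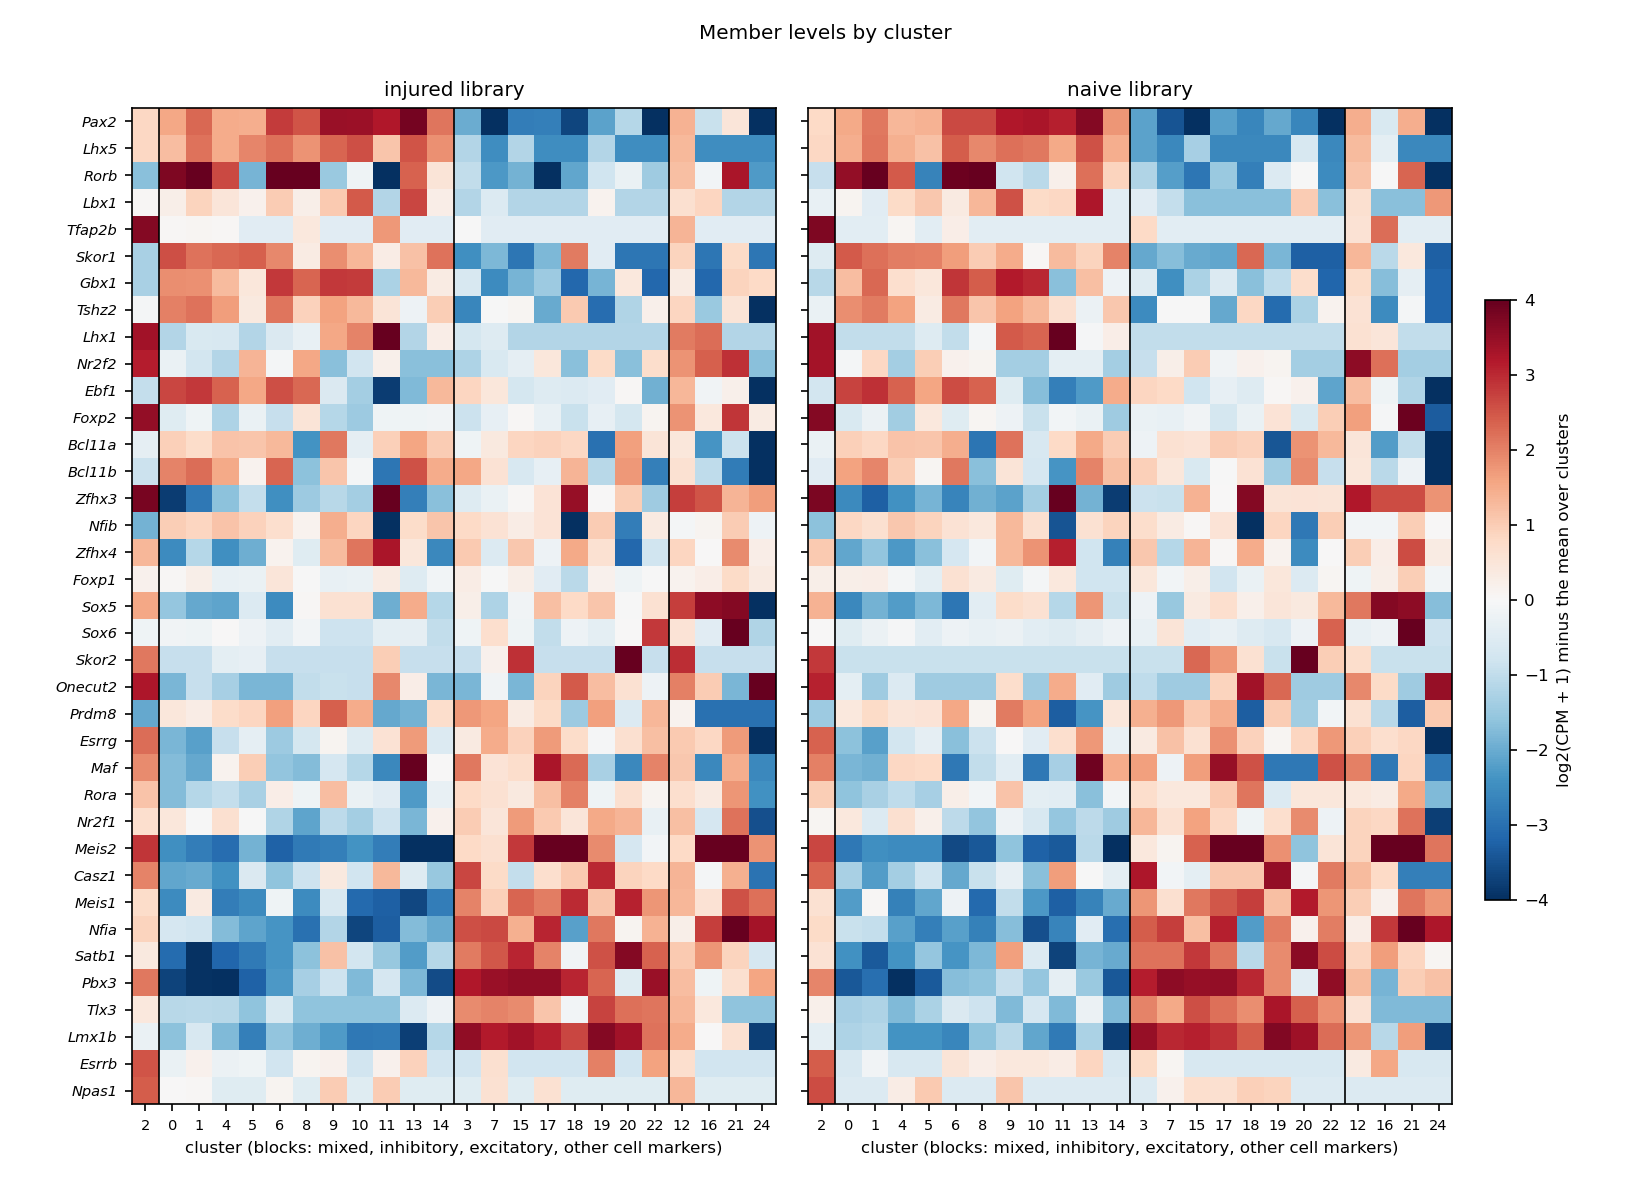
Levels of the 37 members over 24 clusters in the injured (left) and naive (right) library, as log2(CPM + 1) minus the gene's mean over clusters, with colours ending at 4 in either direction. Pax2 at the top is red in inhibitory clusters, Lmx1b near the bottom is red in excitatory clusters, and the 2 panels show like patterns.

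Inhibitory clusters fell into sets with different factors beside Pax2. In clusters 0, 1, 4, 6 and 8 the leading members against the median cluster were Rorb and Ebf1, with Rorb at 1477 CPM in injured and 1469 CPM in naive nuclei of cluster 8, which was led by the tachykinin gene Tac2. In clusters 9 and 10 the leading member against the median cluster was Lhx1, with 5.51 and 9.90 CPM in cluster 9 and 7.86 and 8.98 CPM in cluster 10, where the median cluster had 0.394 and 0 CPM. Lhx1 had 357 UMIs in all nuclei, so its levels in clusters 9 and 10 rest on few UMIs. Gbx1 and Pax2 were also above their median cluster there, with Gbx1 at 61.5 and 80.3 CPM in cluster 9 and Pax2 at 392.3 and 385.9 CPM in cluster 10. Gbx1 was near these levels in cluster 6 too, with 62.3 and 65.2 CPM beside high Rorb. Rorb was at 25.7 and 38.5 CPM in cluster 9, far from its level in cluster 8. Cluster 11, led by Ecel1 and Cdh9, had the highest Lhx1, 53.5 and 68.7 CPM, the highest Zfhx3, 471 and 437 CPM, and the highest Zfhx4, 638 and 594 CPM. Nfib had 17.2 and 28.8 CPM in this cluster, where the median cluster had 493 and 492 CPM. Cluster 13 had the highest Pax2, 518 CPM in injured and 502 CPM in naive nuclei, with the highest Maf, 99.5 and 106 CPM, and the highest Lbx1, 13.3 and 29.0 CPM. Maf was thus raised in an inhibitory cluster although the class as a whole was lower in it. The inhibitory clusters 5 and 14, both led by Nos1, the neuronal nitric oxide synthase, were not among the 2 highest clusters of any member.

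Excitatory clusters shared Lmx1b and differed in the TALE and chromatin genes. Lmx1b had 172 and 178 CPM in injured and naive nuclei of cluster 19, its highest, and 157 and 151 CPM in cluster 3. Tlx3 was also highest in cluster 19, with 19.1 and 31.0 CPM. Pbx3 had 849 and 773 CPM in cluster 17 and 800 and 816 CPM in cluster 7, but 50.7 and 49.95 CPM in cluster 20. Cluster 20, led by Rxfp1, was also where Skor2 was found, at 150 CPM in injured and 136 CPM in naive nuclei, with the highest Satb1 (456 and 452 CPM) and Meis1 (445 and 483 CPM). The next cluster for Skor2, cluster 15, had 13.3 and 8.23 CPM, so this corepressor stood out in 1 cluster. Cluster 18, led by Megf11 and Tac1, had the highest Rora, 2851 and 3085 CPM, with Meis2 at 1115 and 929 CPM, Zfhx3 at 154 and 177 CPM, and Nfib at 13.1 and 16.8 CPM. Clusters 11 and 18 are of different transmitter classes, and both stood among the 3 clusters with most Zfhx3 and held the 2 lowest levels of Nfib, in either library. Cluster 20 had the next lowest Nfib, 46.3 and 44.4 CPM, without such a Zfhx3 level (26.4 and 19.4 CPM).

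Over the 24 clusters, the members most like Pax2 by rank were Lhx5 (Spearman's rho 0.879 in the injured and 0.873 in the naive library), Gbx1 (0.757 and 0.755) and Lbx1 (0.747 and 0.514). The members most like Lmx1b were Tlx3 (0.849 and 0.796), Nr2f1 (0.801 and 0.745) and Satb1 (0.745 and 0.793). Pax2 and Lmx1b themselves ran in opposite order, with rho of −0.67 and −0.54. Clusters share libraries and differ in depth, so these values are descriptions.

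Cluster 2, with 354 injured and 322 naive nuclei and UMIs of both transmitter kinds, was not at the top for Pax2 or Lmx1b. Pax2 had 63.1 and 67.7 CPM there and Lmx1b 10.2 and 9.39 CPM. It was instead the cluster with the highest Tfap2b (16.6 and 16.8 CPM), Esrrg (511 and 508 CPM) and, in the mean of both libraries, Foxp2 (140 and 127 CPM) and Nr2f2 (27.2 and 24.6 CPM). Lhx1 (21.9 and 19.4 CPM) and Zfhx3 (193 and 188 CPM) had their second highest levels in it. Onecut2 (33.0 and 21.7 CPM) did so in the mean of both libraries, while its naive level was higher in cluster 18 (26.1 CPM). Of the members called lower in inhibitory nuclei, Pbx3 had 313 and 263 CPM there, Meis2 138 and 125 CPM and Casz1 29.7 and 32.4 CPM, all above their median cluster. The leading genes were Fam19a2, Fign, Pcdh11x, Npas3 and Kcna1.

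Some members were highest in clusters named by cell type markers. The CSF-contacting neuron-like cluster, with 5 of 5 of its markers at least 4-fold above the other nuclei, had Meis2 at 3056 CPM in injured and 2764 CPM in naive nuclei, where the median cluster had 13.8 and 14.4 CPM, and Sox5 at 383 and 442 CPM. These cells border the central canal and sense the spinal fluid. By its transmitter genes the cluster was inhibitory, and 26 injured and 37 naive nuclei of it counted in the inhibitory class. The astrocyte-like cluster had the highest Sox6 (603 and 726 CPM) and Nfia (1443 and 1500 CPM), with Rorb at 712 and 345 CPM and Sox5 at 404 and 417 CPM. The oligodendrocyte-like cluster had the highest Onecut2, at 86.6 and 28.8 CPM, which rested on 12 and 3 UMIs.

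Whether the factors differ in adulthood after the neonatal incision is the question of the second comparison. With 1 pooled library per group it has no replicate check and no test. Of the genes at the head of the branches, Pax2 and Lmx1b had ratios near 1, and Lbx1 was lower in the injured library. Pax2 in inhibitory nuclei had an injured over naive ratio of 1.005 (0.954 to 1.06), and Lmx1b in excitatory nuclei had 0.938 (0.816 to 1.08). Lbx1 in inhibitory nuclei had 0.549 (0.376 to 0.794), and Tlx3 in excitatory nuclei, with 38 and 41 UMIs, had 0.699 (0.437 to 1.11). Members were counted where the ratio was at most 0.8 or at least the inverse of 0.8, and the class held 100 UMIs or more of the gene. Those counted whose interval included 1 were Lmx1b in inhibitory nuclei, Sox6 (0.797) and Bcl11b (0.793) in mixed nuclei, and Nr2f1 (0.744) in excitatory nuclei. In mixed nuclei 5 of 20 members passed the upper limit and 5 fell to 0.8 or below, against 7.22% and 13.3% of all genes measured. In inhibitory nuclei 9 of 33 members passed the upper limit and 4 fell to 0.8 or below, against 2.79% and 13.8%. In excitatory nuclei 1 of 24 members passed the upper limit and 3 fell to 0.8 or below, against 3.89% and 14.4%. The median log2 ratio of the members was −0.01 in mixed, 0.06 in inhibitory and 0.03 in excitatory nuclei, against −0.03, −0.08 and −0.06 over all genes measured.

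**Figure D5:**
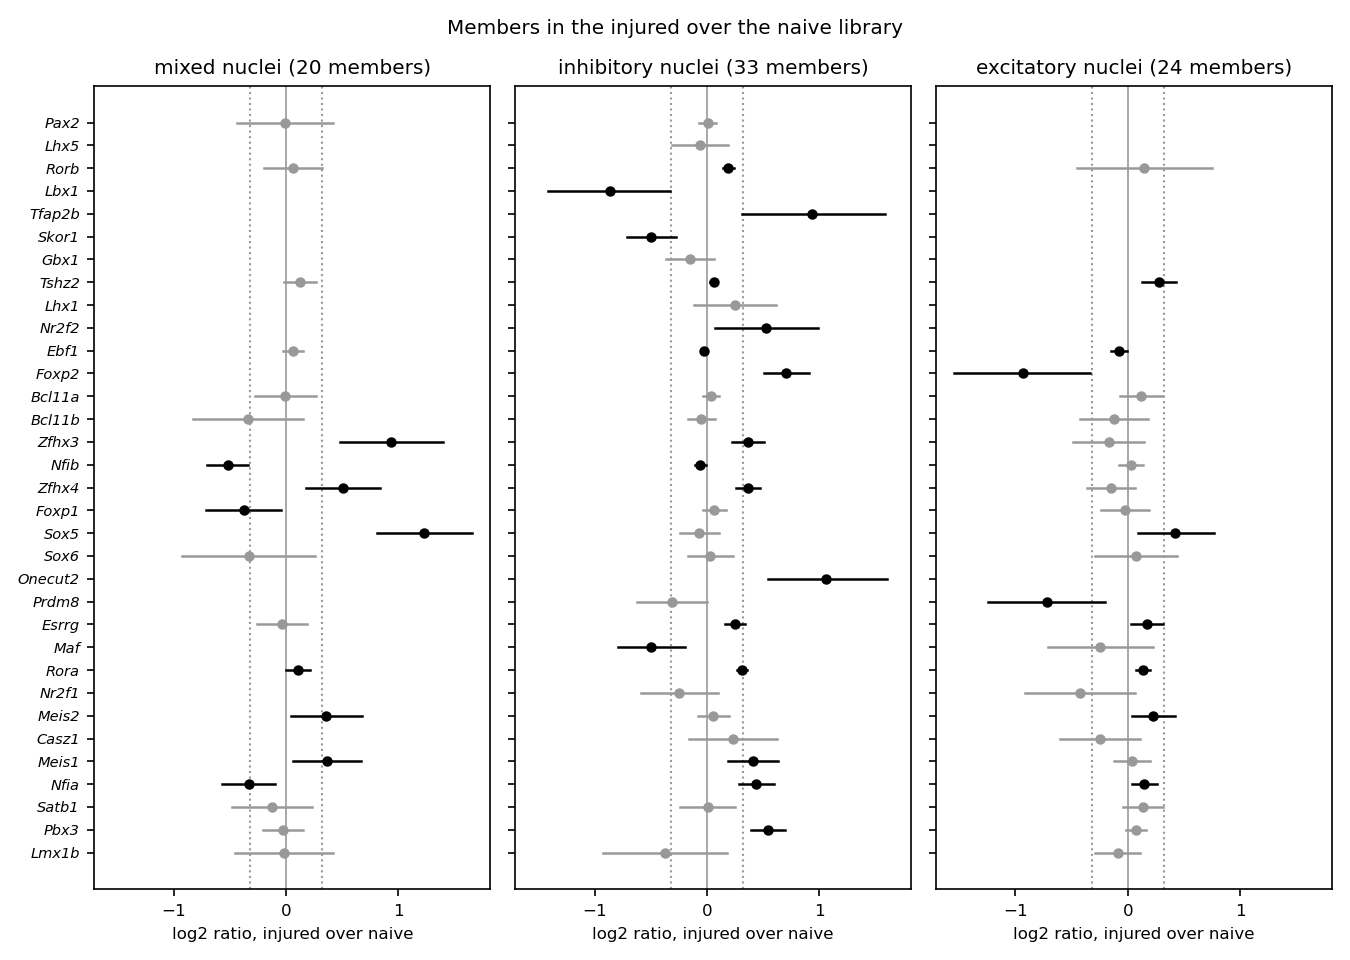
Log2 ratio of CPM, injured over naive, with 95% counting intervals, for members with 100 UMIs or more per class, black where the interval leaves out no difference and grey where it does not. Dotted lines mark a ratio of 0.8 and its inverse, and in inhibitory nuclei Onecut2, Tfap2b and Foxp2 lie farthest to the right and Lbx1 farthest to the left.

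In inhibitory nuclei, Foxp2 had 39.8 CPM in the injured and 24.4 CPM in the naive library (ratio 1.63, 1.42 to 1.87). Onecut2, a cut-homeodomain factor, had 7.07 and 3.39 CPM (2.08, 1.45 to 3.04), and Tfap2b 4.71 and 2.47 CPM (1.91, 1.24 to 3.00). Pbx3 (1.46), Nr2f2 (1.44), Nfia (1.36), Meis1 (1.33), Zfhx3 (1.29) and Zfhx4 (1.29) also had intervals above 1. Lbx1 had 3.30 and 6.01 CPM (0.549, 0.376 to 0.794), Skor1 21.2 and 29.9 CPM (0.709, 0.609 to 0.825) and Maf 11.7 and 16.5 CPM (0.710, 0.578 to 0.872), all lower in the injured library. Lmx1b was the fourth member at or below 0.8 (0.773, 0.526 to 1.13).

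The make-up of the inhibitory class also differed between the libraries, and its part in the ratios was not tested. Cluster 2 held 11.02% of injured and 7.59% of naive inhibitory nuclei, and it held 75.8% and 72.2% of the class's Foxp2 UMIs, 84.3% and 87.5% of its Tfap2b UMIs and 65.7% and 54.5% of its Onecut2 UMIs. Within cluster 2 the injured over naive ratio was 1.10 (0.972 to 1.26) for Foxp2, 0.986 (0.683 to 1.43) for Tfap2b and 1.52 (1.13 to 2.06) for Onecut2. Of the other members above the fold, Zfhx3, Nr2f2, Pbx3, Zfhx4 and Nfia also stood in cluster 2 at 2 times their median cluster or more. Meis1 did not. Without cluster 2, 8 of 30 inhibitory members passed the fold in either direction, against 13 of 33 with it. No share over all genes was taken without cluster 2, so this count shows only how the members' own count moved. Cluster 23, where neuron markers stand beside oligodendrocyte markers, held 1.88% and 0.425% of inhibitory nuclei. With every cluster given the same weight in both libraries, an alternative chosen after the data had been seen, 6 of 33 members passed the fold in either direction. Of all genes in that setting, 1.49% were past the fold higher and 14.4% lower. The 6 are taken over both directions, so neither share alone is their measure. Tfap2b and Onecut2 had log2 ratios of 0.40 and 0.43, past the fold, and Foxp2, Zfhx3 and Pbx3 had log2 ratios of 0.23, 0.06 and 0.18. Lbx1, Skor1 and Maf had −0.79, −0.38 and −0.36 in that setting, past the fold in the same direction.

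In mixed nuclei, Sox5 (2.34, 1.75 to 3.15), Zfhx3 (1.91, 1.40 to 2.63), Zfhx4 (1.42, 1.13 to 1.78), Meis1 (1.29) and Meis2 (1.28) had higher levels in the injured library with intervals above 1, and Nfib (0.698, 0.615 to 0.792), Foxp1 (0.770) and Nfia (0.794) had lower levels with intervals below 1. Sox5 was not raised alike in all of them: mixed nuclei of clusters with both transmitters had 103 CPM in the injured and 129 CPM in the naive library, those of inhibitory clusters 243 and 55.1 CPM, and those of excitatory clusters 41.9 and 19.6 CPM. Of the 168 injured Sox5 UMIs, 96 came from the 33 mixed nuclei in inhibitory clusters. Those clusters include cluster 12, with neuron markers beside Schwann cell markers, which held 14 injured and 8 naive mixed nuclei. Over all nuclei of cluster 12, Sox5 had 215 CPM in the injured and 149 CPM in the naive library. Cluster 2 held 25.3% of injured and 11.9% of naive mixed nuclei, and without it 2 of 18 members passed the fold in place of 10 of 20. No share over all genes was taken without that cluster. In excitatory nuclei, Sox5 had 52.4 CPM in the injured and 39.2 CPM in the naive library (1.34, 1.06 to 1.70), Prdm8, a PR-domain factor, had 14.8 and 24.3 CPM (0.607, 0.422 to 0.870), and Foxp2 had 10.4 and 19.9 CPM (0.524, 0.343 to 0.794). The excitatory values of Foxp2 rest on 41 and 59 UMIs.

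Other transcription factors of the dorsal horn, 42 by name, served as context. Of these, 33 were in the table and 22 were tested, with 8 higher and 10 lower in inhibitory than in excitatory nuclei. The highest ratios were those of Neurod2 (14.3 and 17.7 CPM in injured and naive inhibitory nuclei, against 0 and 0.675 CPM in excitatory nuclei) and Neurod6 (log2 ratio 3.87 ± 0.38). The lowest were those of Pou4f1 (log2 ratio −6.32 ± 0.22) and Prrxl1 (−2.42 ± 0.15), a homeodomain factor of pain circuits. Of 15 transcription factors of the ventral horn, 9 were in the table and 0 passed the filter on low counts.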

How the data were processed

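Nuclei of 2 pooled libraries were analysed from the count table of genes by nuclei. Per the submitters' processing notes, the authors used Cell Ranger 3.0.2, Seurat (version not given in the sources used here) and build mm10. The authors deposited UMI counts and, beside them, natural log values, ln(1 + 10000 × count / total). The deposited natural log values matched that formula within 6e-15 and were not used further.

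All 7610 deposited nuclei were kept. Classes, thinning to 4000 UMIs and sums per library and class were computed from the counts. Sums were tested with edgeR 4.0.16 (filterByExpr with a minimum count of 10, TMM, quasi-likelihood, R 4.3.3) over all genes, with an adjusted p under 0.05 as the threshold. DESeq2 1.42.0 was an alternative. Nuclei were clustered with scanpy 1.11.5 and leidenalg 0.10.2 (2000 variable genes, 30 components, 15 neighbours, resolution 1) without the members, neuropeptides, activity, stress, mitochondrial and sex-linked genes. The edgeR step was tested on simulated data. Intervals are exact (Poisson, conditional binomial, Clopper-Pearson) at 95%.

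The members and lists were chosen with earlier results of these data known. Members with at least 100 UMIs over the 3 classes were named with values. In the injured over naive comparison, those past the fold with an interval that leaves out 1 were named by rule, and the others past the fold are listed with their values. Alternatives that left out cluster 2, left out clusters with glia or Schwann cell markers, or weighted clusters equally were chosen after seeing the data.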

Additional observations from a re-analysis of the deposited data

Results flagged for a closer look

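Foxp2 differed in direction between classes in the injured over naive comparison. Its ratio was 1.63 in inhibitory nuclei (39.8 CPM in the injured and 24.4 CPM in the naive library) and 0.524 in excitatory nuclei (10.4 and 19.9 CPM), with both intervals leaving out 1. In inhibitory nuclei, cluster 2 held 75.8% of the injured and 72.2% of the naive Foxp2 UMIs, the ratio within that cluster was 1.10 (0.972 to 1.26), and with clusters given the same weight the log2 ratio was 0.23, inside the fold. With 1 pooled library per group the difference was not tested.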

How the results depend on the processing

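No replicate block, that is, a fit without library as a term, gave 11 higher and 9 lower members for mixed over inhibitory, 7 and 4 for mixed over excitatory, and 13 and 12 for inhibitory over excitatory nuclei. Over all settings, 77 counts of called members stayed within 1.5 times the reported count and 13 did not. Counts of members in this section stand without a share over all genes, so they describe only how the members' counts moved. With the class set per cluster, 22 members were higher in mixed than inhibitory nuclei, and 16 were higher and 13 lower than in excitatory nuclei. The mixed class was then all nuclei of clusters 2 and 23, most of them in cluster 2. In that setting 4 inhibitory members passed the injured over naive fold, and the joint Pax2 pattern in naive mixed nuclei was 0%. Log2 ratios then turned for mixed over inhibitory in Lhx1 (1.83), Sox6 (−0.33), Tfap2b (4.96), Nr2f2 (2.69) and Foxp2 (3.44), and for mixed over excitatory in Gbx1 (−0.035), Rora (0.14), Esrrg (1.17), Bcl11a (−0.79) and Ebf1 (−0.85). They also turned for inhibitory over excitatory in Sox5 (0.28), and for injured over naive mixed nuclei in Zfhx3 (−0.069), Sox5 (−0.054), Nfia (0.28) and Nfib (0.17). Leaving out CSF-contacting, glia and Schwann cell clusters as well gave 23, 15 and 14 members, 5 mixed and 4 inhibitory members past the fold, and 0%. The mixed class was then cluster 2 alone, with 354 injured and 322 naive nuclei. The ratios that turned there were Lhx1 1.95, Tfap2b 5.68, Nr2f2 3.54 and Foxp2 4.04 (mixed over inhibitory), Gbx1 −0.29, Rora 0.21, Skor1 −0.066, Esrrg 1.29, Bcl11a −0.83 and Ebf1 −1.28 (mixed over excitatory), Zfhx4 −0.18, Tfap2b −0.072 and Foxp2 −0.072 (inhibitory over excitatory), and Nfia 0.24 (injured over naive, mixed). A minimum of 6 transmitter UMIs gave 7 members lower in mixed than inhibitory and 9 lower in inhibitory than excitatory nuclei, 6 mixed members past the fold, Nfib at −0.43 (inhibitory over excitatory) and 0.034 (injured over naive, mixed), Pax2 alone in 52.7% of injured and 55.8% of naive inhibitory nuclei, Lmx1b or Tlx3 alone in 50% of naive excitatory nuclei, and the joint pattern in 12.5% of naive mixed nuclei. Without the 10% of nuclei with most UMIs, 7 members were lower in mixed than inhibitory nuclei, Foxp2 had 1.18 (mixed over inhibitory) and −0.026 (inhibitory over excitatory), Meis2 had −0.73 (injured over naive, mixed), and the joint pattern in injured mixed nuclei was 0%. Nuclei with Y-linked UMIs gave 4 lower (mixed over inhibitory), 3 higher and 0 lower (mixed over excitatory) and 9 higher (inhibitory over excitatory) members, 4 mixed and 2 excitatory members past the fold, a mixed median of 0.13, a joint pattern of 0% in naive mixed nuclei, Foxp2 at −0.34 (mixed over excitatory) and Maf at 0.27 (injured over naive, inhibitory). Nuclei with Xist UMIs gave 8 inhibitory and 0 excitatory members past the fold and a joint pattern of 0% in injured mixed nuclei. TMM-effective totals gave 6 mixed members past the fold. Without cluster 2, 2 mixed and 8 inhibitory members passed it, with Meis1 at −0.057 and Meis2 at −0.43 in mixed nuclei. Clusters of the same weight gave 6 inhibitory members. Without thinning, Pax2 alone was in 67.5% and 63.3% of inhibitory nuclei, Lmx1b or Tlx3 alone in 66.7% and 67.2% of excitatory nuclei, and the joint pattern in 12.1% and 10.3% of mixed nuclei. Thinned to 2500 UMIs, these were 36.6% and 34.8%, 29.0% and 30.7%, and 0% and 0%, in injured and naive nuclei. Without Scrublet doublets the joint pattern was 0% in naive mixed nuclei. The cause of these shifts was not tested.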
